A study of Mus musculus with 3 samples.

Results

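The interferon beta gene, the receptor chains of the type I and type II interferons, and the kinases and transcription factors behind them were followed in 3 RNA-seq libraries of stimulated mouse macrophages. The genes were taken by symbol and are 9 of the 55450 genes in the tables: Ifnb1, Ifnar1, Ifnar2, Ifngr1, Ifngr2, Jak1, Tyk2, Stat2 and Stat3. All 9 were found, with 59 annotated transcripts. The cells were C57BL/6J BMDM (bone marrow-derived macrophages, primary cells and no cell line), exposed to lipid A, the Tlr4-binding part of bacterial lipopolysaccharide, at 100 ng per ml for 40 minutes. RNA of the cytosolic fraction was depleted of ribosomal RNA, and the 3 libraries, numbered as biological replicates 1, 2 and 3, form 1 group with this treatment. The 3 libraries share 1 donor record, sex and age were not collected, and no unstimulated library was analysed here. The values are therefore levels at 40 minutes and not changes, and their spread may in part be technical.

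Interferon beta is secreted by macrophages when lipid A signals through Tlr4, the adaptor TRIF and the kinase TBK1 to the factor IRF3. It binds a receptor made of the IFNAR1 and IFNAR2 chains, which carry the kinases TYK2 and JAK1. These kinases phosphorylate STAT proteins, and STAT2 together with IRF9 is part of the complex that switches on antiviral genes. Interferon gamma uses a separate receptor of IFNGR1 and IFNGR2 chains, which also relies on JAK1, while STAT3 is best known downstream of the interleukin-6 and interleukin-10 receptors.

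The message of the receptor chain Ifnar2 was divided among annotated splice forms that end differently, and the exon junction that separates them is shown first because most of the Ifnar2 level lay in a short form. Mouse Ifnar2 is known to make, besides the membrane chain, a soluble receptor form by alternative splicing. The annotated transcripts Ifnar2-201, Ifnar2-202 and Ifnar2-203 share the first bases of exon 7 up to position 91393913 of chromosome 16 (mm10, plus strand) and then part. The lines below give the end of the shared part in lower case and what follows it in capitals, down to the stop codon for the short forms; the sequences are the GENCODE M21 transcripts.
Ifnar2-201: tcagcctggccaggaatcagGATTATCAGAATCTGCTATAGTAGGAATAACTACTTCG
Ifnar2-202: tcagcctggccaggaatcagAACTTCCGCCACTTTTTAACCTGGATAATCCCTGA
Ifnar2-203: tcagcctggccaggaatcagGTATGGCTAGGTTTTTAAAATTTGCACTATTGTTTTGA
Ifnar2-201 goes on to 9 exons and 513 codons, the full-length chain. Ifnar2-203 has 7 exons and 248 codons and reads on past the splice site into 127 bases (chr16:91393914-91394040) that are intronic in Ifnar2-201 and Ifnar2-202 and lie in no exon of another Ifnar2 transcript. Ifnar2-202 skips exon 8 of Ifnar2-201 and has 247 codons.

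All 9 genes had reads in every library. Total counts in genes were 37855530, 37131719 and 58879278 in replicates 1, 2 and 3, and 32.8%, 36.2% and 23.5% of TPM (a length-normalised level that sums to the same total in each library) belonged to nuclear protein-coding genes. The macrophage markers were at or above 1 TPM in 6 of 6 genes, with a median of 262 TPM; across all coding genes 43.2% reached 1 TPM. The neutrophil markers reached 1 TPM in 3 of 6 genes with Ly6g at 0, and their summed level was 35.1 to 44.7 TPM. The dendritic cell markers, plasmacytoid ones included, reached it in 0 of 6, with sums of 1.33 to 1.65 TPM and none at 0 in all libraries. The lymphocyte markers reached it in 0 of 6, with sums of 0.0200 to 0.130 TPM and with Cd3e and Ncr1 at 0. The part of these other cells in the levels below was not tested.

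Ifnb1, the secreted ligand, was the lowest of the 9 genes and the only interferon gene examined that had more than single counts. Ifnb1 (ENSMUSG00000048806.4; chromosome 4, 88522025 to 88522774, minus strand, mm10) has 1 annotated transcript of 750 bases in 1 exon with 182 codons, so spliced and unspliced RNA cannot be told apart. Its level was 3.61, 3.97 and 0.830 TPM in replicates 1, 2 and 3, a mean of 2.80 ± 1.72 (SD, n = 3), or 3.79 without replicate 3. These levels rest on 104, 106 and 48 expected counts, whose exact 95% Poisson intervals, which cover counting error only, correspond to 2.95 to 4.37, 3.25 to 4.80 and 0.612 to 1.10 TPM. Replicates 1 and 2 thus lay together within counting error and replicate 3 lay below both intervals. Fewer cells making Ifnb1 and less Ifnb1 RNA per cell cannot be told apart in bulk RNA. The mean was above that of 32.0% of the 11436 detected protein-coding genes (mean of at least 0.1 TPM), whose median was 6.15 TPM. The coding genes annotated on either side are Hacd4 at 62.6 ± 12.7 TPM and Ifna15 at 0 TPM in all 3 libraries.

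The other interferon genes were at or near 0. Of 19 type I, II and III ligand genes other than Ifnb1, none reached 1 TPM and 17 were at 0 in every library; across all coding genes 43.2% reached 1 TPM. The 19 genes together had 2 expected counts. Ifna2, a type I interferon, had 1 count in replicate 1, and Ifnk, the keratinocyte type I interferon, had 1 in replicate 3. A count of 0 allows up to 0.0792, 0.0808 and 0.0510 CPM (counts scaled to the library total; 3 counts) in replicates 1, 2 and 3. The Ifna genes are near-identical copies, so reads shared between them could have been divided in more than 1 way.

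The 8 other genes, those of the receptors, kinases and STAT proteins, had means between 11.4 and 59.6 TPM and thus all lay above the median of detected coding genes. Ifnar2 and Ifngr1 were among the highest 10% of detected coding genes, which began at 41.7 TPM. By mean TPM the order was Ifnar2, Ifngr1, Jak1, Ifngr2, Ifnar1, Stat2, Stat3, Tyk2 and Ifnb1. The first 4 and the last 2 places were the same in each library, while Ifnar1, Stat2 and Stat3 changed places among themselves. All 9 genes were lowest in replicate 3 by TPM, the library with the lowest coding share of TPM. After each library was rescaled to the TPM of its coding genes, 2 of the 9, Ifnb1 and Stat2, were lowest in replicate 3.

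**Figure D1:**
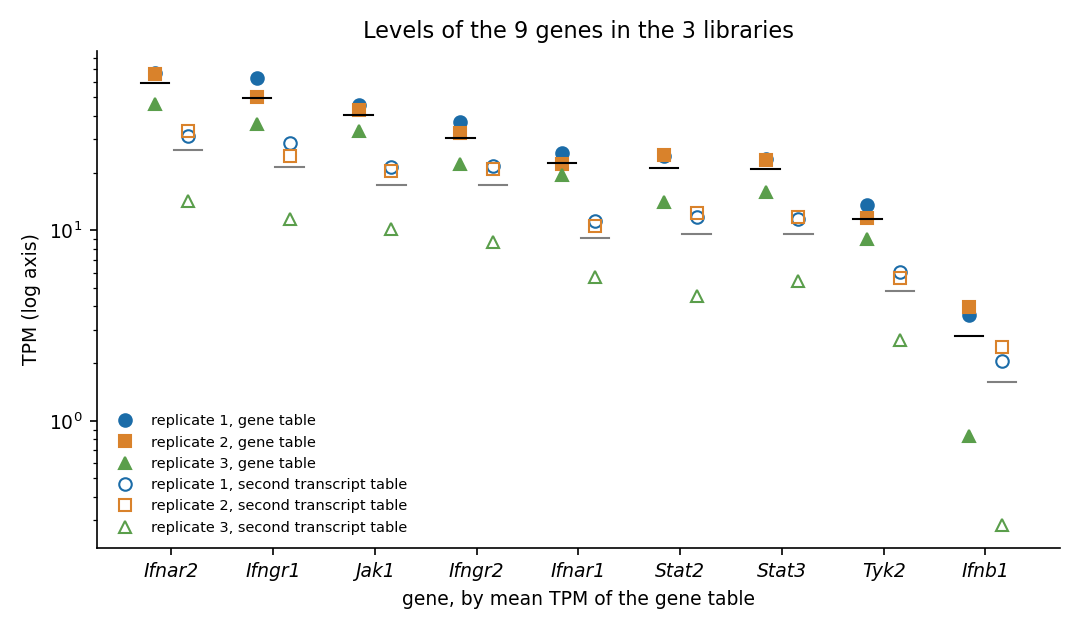
TPM (log axis) of the 9 genes in replicates 1, 2 and 3, from the gene table (filled points, black line at the mean) and from the second transcript table (open points, grey line at the mean). The gene-table means run from 59.6 TPM for Ifnar2 to 2.80 TPM for Ifnb1, replicate 3 is the lowest for every gene in both tables, and the second table lies below the gene table for all 9.

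Among the type I receptor chains, Ifnar1 was lower than Ifnar2 in every library at the level of the gene. Ifnar1, the chain that binds TYK2 (ENSMUSG00000022967.13; chromosome 16, 91485238 to 91507441, plus strand), had 25.5, 22.3 and 19.6 TPM from 4984, 4155 and 7675 expected counts. Ifnar2, the chain that binds JAK1 (ENSMUSG00000022971.18; chromosome 16, 91372783 to 91405589, plus strand), had 66.7, 66.0 and 46.0 TPM from 5071, 4481 and 7154 expected counts. The libraries of the 2 genes did not overlap. Within libraries the difference of log2(TPM + 1), Ifnar1 minus Ifnar2, was -1.35, -1.52 and -1.19, with a mean of -1.35 ± 0.17 (SD, n = 3). A pair was counted as differing beyond its spread where the 3 differences had 1 sign and their mean exceeded 2 SD; no p is given, since 3 libraries allow no two-sided exact sign-flip p under 0.25. By this rule Ifnar1 and Ifnar2 differed. Without the division by length the pair did not differ, at -0.01 ± 0.11 on the log2 CPM scale; the 2 genes had nearly equal counts.

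The order turned when the full-length Ifnar2 transcript alone was set against coding Ifnar1, a comparison chosen after the transcript values were seen. Ifnar2-203, the short form, had 44.8, 49.5 and 29.9 TPM in the first transcript table, which was 69.1% ± 5.24 (SD, n = 3) of Ifnar2. Ifnar2-201, the full-length chain, had 17.6, 14.7 and 12.7 TPM, below the short form in each library. Ifnar2-202 had 0.750, 0.780 and 0.430 TPM, and the truncated Ifnar2-204 had 3.52, 1.00 and 2.62. The short forms 202 and 203 together exceeded the full-length form 2.60, 3.42 and 2.40 times in the first table, and 2.93, 3.90 and 2.90 times in the second, which was made from the reads directly. In expected counts, not divided by length, the same ratios were 0.828, 1.08 and 0.759, and Ifnar2-203 has 1099 bases where Ifnar2-201 has 3047.

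Full-length Ifnar2 was lower than coding Ifnar1 in all 3 libraries. Ifnar2-201 stood at 0.727, 0.681 and 0.711 of the summed level of the coding transcripts Ifnar1-201 and Ifnar1-202 in the first table, and at 0.717, 0.649 and 0.686 in the second. The mean difference, full-length Ifnar2 minus coding Ifnar1, was -0.48 ± 0.04 in log2(TPM + 1) in the first table and -0.48 ± 0.07 in the second, beyond its spread in both. The division of reads between the Ifnar2 forms is the authors' estimate: Ifnar2-203 has only the 127 bases shown above to itself, and the tables list no separate entry for unspliced RNA, which also holds them. Gm21970, an annotated readthrough gene that overlaps 13869 bases of the Ifnar2 locus, was at 0 TPM in every library of the gene table.

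**Figure D2:**
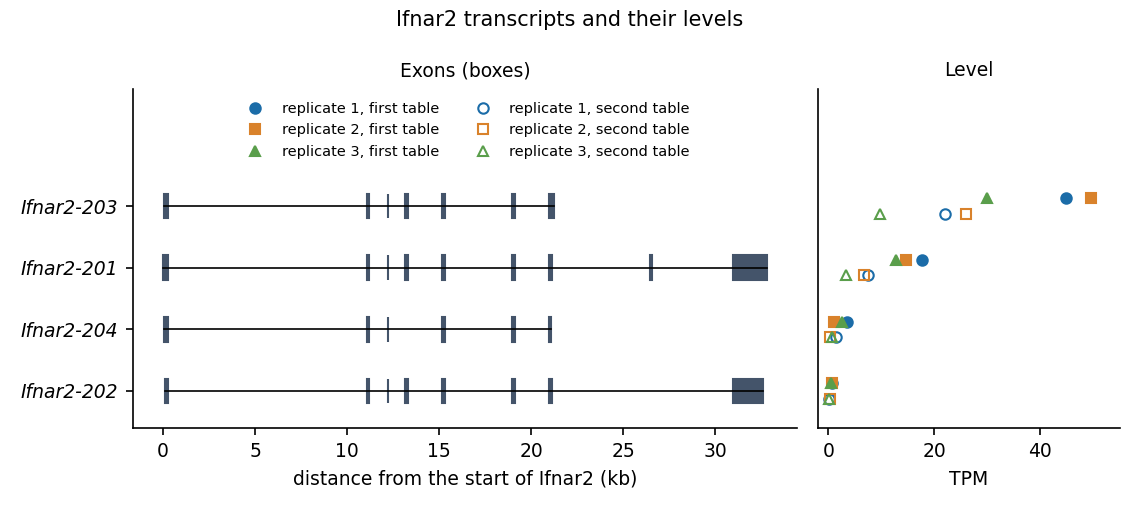
Left, exons (boxes) of 4 Ifnar2 transcripts by distance from the start of the gene in kb; right, their TPM in replicates 1, 2 and 3 from the first (filled) and second (open) transcript table. Ifnar2-203, which ends in exon 7, has 29.9 to 49.5 TPM in the first table and Ifnar2-201, with 9 exons, has 12.7 to 17.6 TPM.

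Ifnar1 itself was mostly 1 form. Ifnar1-201 held 89.7% ± 1.75 of the gene's TPM. Ifnar1-202, with the same 590 codons, 12 exons where Ifnar1-201 has 11, and the same annotated end, had 1.20, 1.21 and 0.580 TPM. The retained-intron transcript Ifnar1-205 had 0.390, 0.0700 and 1.05 TPM, and Ifnar1-203, annotated for nonsense-mediated decay, had 0.780, 0.670 and 0.620 TPM. By TPM the retained-intron form was thus highest in replicate 3, where the coding forms were lowest. Rescaled to coding genes, the whole Ifnar1 gene had 24.0, 19.0 and 25.7 TPM in replicates 1, 2 and 3, and was not lowest in replicate 3.

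By TPM, the interferon gamma receptor chain Ifngr1 was higher than Ifngr2 in every library. Ifngr1, the ligand-binding chain (ENSMUSG00000020009.13; chromosome 10, 19591949 to 19610229, plus strand), had 62.8, 50.3 and 36.0 TPM from 6342, 4810 and 7264 expected counts. Ifngr2, the signal-transducing chain (ENSMUSG00000022965.8; chromosome 16, 91547072 to 91565623, plus strand), had 37.1, 32.4 and 22.2 TPM from 6098, 5822 and 8588 expected counts. Ifngr1 exceeded Ifngr2 by 0.75, 0.62 and 0.67 in log2(TPM + 1), with a mean of 0.68 ± 0.06, beyond its spread; the mean was 0.32 ± 0.10 in the second table and turned to -0.15 ± 0.18 without the division by length. Across the receptors, Ifngr1 exceeded Ifnar1 by 1.08 ± 0.22 and Ifngr2 lay below Ifnar2 by a difference of -0.95 ± 0.11, both beyond their spread. By CPM these differences were 0.16 ± 0.22, within its spread, and 0.30 ± 0.06, of the other sign. The Ifnar2 level here is that of the whole gene. Full-length Ifnar2-201 alone, at 17.6, 14.7 and 12.7 TPM, lay below Ifngr2-201, at 31.5, 32.4 and 22.2 TPM in the first transcript table.

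The 2 transcript tables differed over a short Ifngr2 form. Ifngr2-202, annotated for nonsense-mediated decay, leaves out exon 2 of the coding transcript Ifngr2-201, a run of 133 bases (chr16:91554948-91555080). The junction is shown because the form is told from Ifngr2-201 by it: the capitals are the exon that Ifngr2-202 lacks.
Ifngr2-201: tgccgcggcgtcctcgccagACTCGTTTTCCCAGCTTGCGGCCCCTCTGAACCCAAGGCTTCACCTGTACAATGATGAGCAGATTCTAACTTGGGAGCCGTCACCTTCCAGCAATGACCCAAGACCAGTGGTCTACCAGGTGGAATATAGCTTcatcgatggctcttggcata
Ifngr2-202: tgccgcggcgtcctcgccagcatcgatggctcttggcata
The second table gave Ifngr2-202 7.63, 6.18 and 2.34 TPM in replicates 1, 2 and 3, and the first table gave it 5.60, 0 and 0 TPM. As a share of Ifngr2 this was 30.4% ± 4.26 in the second table and 5.03% ± 8.72 in the first. In replicate 1 the 5.60 TPM of the first table came from 95 expected counts, beside 6003 for Ifngr2-201 at 31.5 TPM; Ifngr2-202 has 534 bases and Ifngr2-201 has 3708. The level of this form is therefore uncertain in these data. For Ifngr1, the coding Ifngr1-201 held 91.7% ± 2.88, and the decay-annotated Ifngr1-203 had 2.16, 5.27 and 1.14 TPM, highest in replicate 2.

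Ifnar2, Ifnar1 and Ifngr2 lie in 1 cluster on chromosome 16 with Il10rb, a chain of the interleukin-10 and interferon lambda receptors. Il10rb (91406164 to 91425834) starts 574 bases past the annotated end of Ifnar2 and had 129.8, 124 and 94.3 TPM, above all 9 genes in every library. The coding gene past Ifngr2 is Tmem50b, at 11.4 ± 2.71 TPM. Ifngr1, on chromosome 10, is followed by Il22ra2, the secreted interleukin-22 binding chain, at 0 TPM in all libraries.

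Of the receptor-bound kinases, Jak1 was far above Tyk2. Jak1, shared by both interferon receptors (ENSMUSG00000028530.14; chromosome 4, 101152367 to 101265282, minus strand), had 45.3, 42.9 and 33.1 TPM from 11205, 10234 and 16741 expected counts, the most counts of the 9 genes. Tyk2, bound to IFNAR1 (ENSMUSG00000032175.11; chromosome 9, 21104068 to 21131243, minus strand), had 13.6, 11.6 and 9.03 TPM from 3299, 2684 and 4397 expected counts. The libraries of the 2 genes did not overlap. Jak1 exceeded Tyk2 by 1.67, 1.80 and 1.77 in log2(TPM + 1), a mean of 1.75 ± 0.07, beyond its spread, and by 1.66 ± 0.04 in the second table. By CPM the difference was 1.86 ± 0.09. Jak1-201, the only Jak1 transcript with 1153 codons, held 97.1% ± 1.18 of the gene's TPM. The end of Jak1 overlaps Raver2, on the other strand, by 4 bases; Raver2 had 0.0400 ± 0.0200 TPM.

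Tyk2 came almost wholly from a transcript that leaves out 69 bases of the longest coding form. Tyk2-203, with 1184 codons, had 12.9, 11.3 and 8.35 TPM, or 95.0% ± 2.26 of the gene. Tyk2-201 and Tyk2-206, which keep the 69 bases (chr9:21124141-21124209) and have 1207 codons, had 0.110, 0.0800 and 0.120 TPM together. The second table gave 5.74, 5.50 and 2.43 TPM for Tyk2-203, and 0.0791, 0 and 0.0367 for the longer forms. The lines give the run in capitals, on the minus strand as transcribed.
Tyk2-206: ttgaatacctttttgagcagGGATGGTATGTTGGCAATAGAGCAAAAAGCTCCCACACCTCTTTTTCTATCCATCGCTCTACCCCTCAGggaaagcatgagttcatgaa
Tyk2-203: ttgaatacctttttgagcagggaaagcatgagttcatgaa
The run is a multiple of a codon, so both forms keep the reading frame. The short coding transcript Tyk2-205, which also holds the run, had 0.270, 0.150 and 0.230 TPM. Tyk2 lies between Raver1, at 10.2 ± 2.95 TPM, and Cdc37, a kinase co-chaperone gene, at 37.8 ± 7.87 TPM. The antisense gene 1700084C06Rik overlaps 24326 bases of the Tyk2 locus and had 0.0367 ± 0.0635 TPM; whether counting used strand is not given in the sources used here.

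The difference between the STAT genes Stat3 and Stat2 stayed within its spread. Stat2, the partner of IRF9 (ENSMUSG00000040033.16; chromosome 10, 128270559 to 128292849, plus strand), had 24.7, 25.0 and 14.0 TPM from 4876, 4807 and 5569 expected counts. Stat3 (ENSMUSG00000004040.16; chromosome 11, 100885098 to 100939540, minus strand) had 23.7, 23.5 and 15.9 TPM from 5489, 5181 and 7294 expected counts. Stat3 minus Stat2 was -0.06, -0.09 and 0.17 in log2(TPM + 1), with a mean of 0.01 ± 0.14, within its spread. Stat3 was the higher of the 2 in replicate 3 and the lower in replicates 1 and 2. The mean thus turned to -0.07 ± 0.02 without replicate 3, beyond the spread of the remaining libraries, though with 2 libraries the rule is met more easily.

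A retained-intron transcript made up a measurable part of Stat2. Stat2-206 had 3.20, 2.72 and 2.02 TPM in the first table and 1.79, 1.54 and 0.776 TPM in the second, a share of the gene of 12.7% ± 1.76 in the first and 15.0% ± 2.38 in the second. Its first-table levels came from 90, 71 and 114 expected counts on 736 bases, beside 4714, 4700 and 5401 counts for the coding Stat2-201 on 4394 bases. Stat2-206 reads on into 192 bases of intron (chr10:128277219-128277410) where Stat2-201 joins the next exon; the first 30 bases past the shared splice site are in capitals for the intron and in lower case for the exon.
Stat2-206: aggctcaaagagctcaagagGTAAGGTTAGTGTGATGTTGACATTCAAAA
Stat2-201: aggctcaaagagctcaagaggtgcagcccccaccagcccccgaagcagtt
Transcripts not annotated as protein coding held 14.8% ± 2.23 of Stat2 in all, 15.6%, 12.3% and 16.5% in replicates 1, 2 and 3, the highest such share of the 9 genes in the first table. In the second table it was 19.6% ± 3.45, below the 30.8% ± 4.08 of Ifngr2. Stat2 lies between Apof, at 0.0367 ± 0.00577 TPM, and Il23a, an interleukin-23 subunit gene, at 1.40 ± 0.839 TPM.

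Stat3 was mainly the alpha form. STAT3 beta is known to arise by an alternative splice acceptor that removes the C-terminal transactivation domain. The alpha transcript Stat3-203, with 770 codons, had 21.1, 21.9 and 13.3 TPM. The beta transcript Stat3-202, with 722 codons, had 1.19, 0.830 and 1.08 TPM, which was 5.14%, 3.58% and 7.19% of the coding Stat3 level; in the second table this share was 1.64%, 1.81% and 2.53%. In both tables the beta share was highest in replicate 3. Stat3-202 also ends further downstream than Stat3-203, at 100885098 against 100886810, and has 1712 bases in no other Stat3 transcript. The beta share therefore rests on this longer 3′ end as well as on the splice, and these were not separated. The beta form leaves out 50 bases (chr11:100889541-100889590, minus strand), shown in capitals in Stat3-203; the capitals in Stat3-202 are the stop codon it then reaches in another frame.
Stat3-203: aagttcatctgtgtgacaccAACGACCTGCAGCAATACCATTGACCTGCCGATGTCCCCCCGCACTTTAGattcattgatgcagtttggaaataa
Stat3-202: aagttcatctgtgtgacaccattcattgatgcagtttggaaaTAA
A further coding transcript, Stat3-201 with 769 codons, lacks 3 bases (chr11:100893074-100893076) at an exon junction, in capitals below.
Stat3-203: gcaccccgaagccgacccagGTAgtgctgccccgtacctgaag
Stat3-201: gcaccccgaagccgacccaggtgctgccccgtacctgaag
Stat3-201 had 0.840, 0.470 and 0.660 TPM in the first table. The 3′ end of Stat3 overlaps that of Stat5a, on the other strand, by 72 bases, so the counts of Stat3-202, which reaches it, are uncertain to that extent. Stat5a had 4.91 ± 1.30 TPM, Stat5b, the next gene past it, had 9.70 ± 2.10 TPM, and Cavin1, on the other side of Stat3, had 0.0992 TPM on average in the second transcript table.

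**Figure D3:**
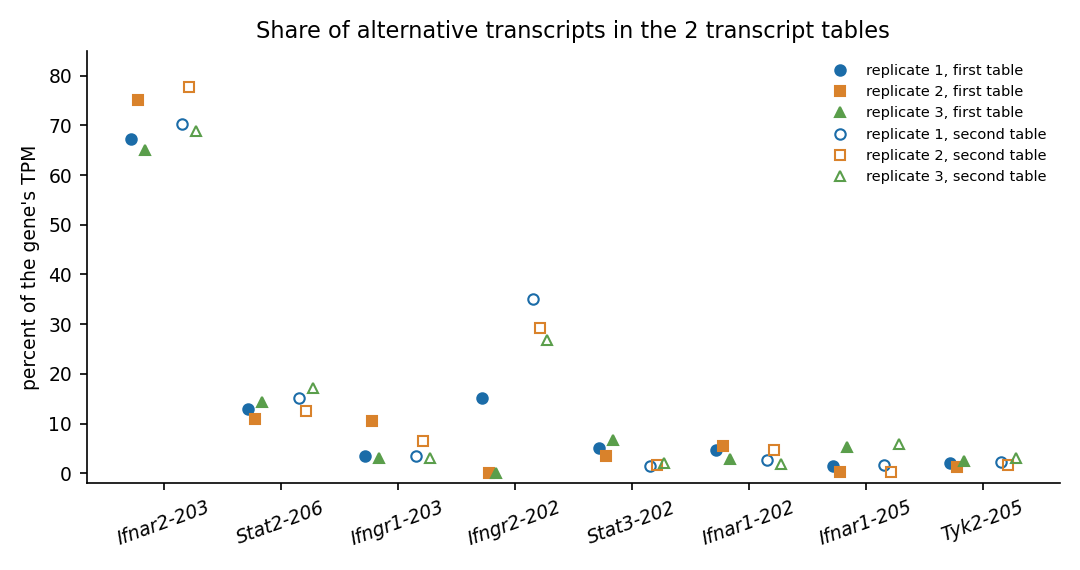
Share of the gene's TPM, in percent, held by 8 alternative transcripts in replicates 1, 2 and 3, from the first (filled) and second (open) transcript table. Ifnar2-203 holds most of Ifnar2 in both tables, at 65.1% to 77.7%, while Ifngr2-202 lies at 0 to 15.1% in the first table and at 26.9% to 35.1% in the second.

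In all, 13 pairs of the 9 genes were compared. These were 6 pairs taken within the receptor chains, the kinases or the STAT genes, and the 8 neighbours in the order of levels. The neighbours were taken from the mean TPM of these same libraries, so the direction of their steps largely follows from that choice. The pair of Stat3 and Stat2 was in both, and 8 of the 13 pairs differed beyond their spread. Of the neighbours 3 did. Jak1 exceeded Ifngr2 by 0.41 ± 0.14 in log2(TPM + 1), Stat3 exceeded Tyk2 by 0.83 ± 0.11, and Tyk2 exceeded Ifnb1 by 1.82 ± 0.57. Ifnar2 and Ifngr1 differed by 0.27 ± 0.16, Ifngr1 and Jak1 by 0.27 ± 0.18, Ifngr2 and Ifnar1 by 0.40 ± 0.20, and Ifnar1 and Stat2 by 0.12 ± 0.31, all within the rule's spread. Some of these calls changed when 1 library was left out. The rule then rests on 2 differences and is met more easily than with 3. Without replicate 1 (n = 2), Ifnar2 exceeded Ifngr1 by 0.37 ± 0.03 and Ifngr1 exceeded Jak1 by 0.17 ± 0.08, beyond their spread. Without replicate 3 (n = 2), Ifngr1 exceeded Jak1 by 0.34 ± 0.17 and Ifngr2 exceeded Ifnar1 by 0.52 ± 0.00, also beyond it. In the second table Ifngr2 exceeded Ifnar1 by 0.79 ± 0.22 and Ifngr1 exceeded Jak1 by 0.27 ± 0.13, both beyond their spread. Ifngr2 over Ifnar1 was also beyond it with a pseudocount of 0.1, at 0.42 ± 0.21, and with TPM rescaled to coding genes, at 0.40 ± 0.20. By the steps over all 3 libraries in the gene table, the order held an upper run from Ifnar2 to Jak1 and a middle run from Ifngr2 to Stat3. Tyk2 and Ifnb1 each lay below. The alternatives above, some of them on 2 libraries only, divide this order further. The step from Jak1 to Ifngr2 was 0.05 ± 0.13 in the second table, within its spread.

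**Figure D4:**
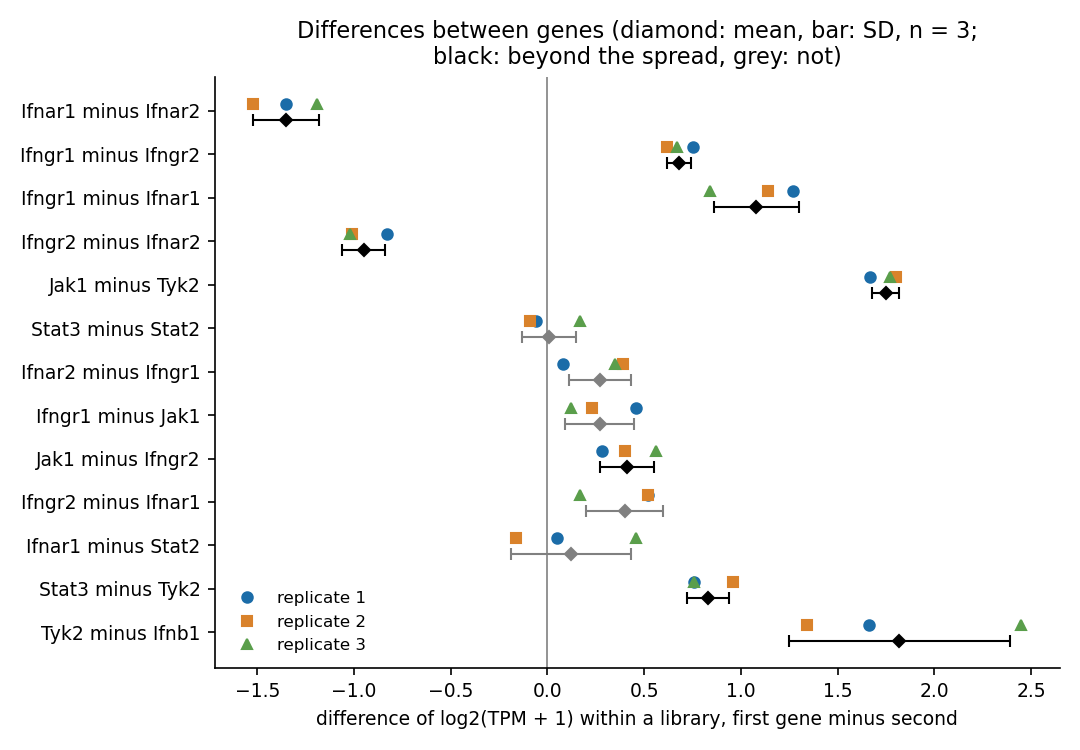
Within-library differences of log2(TPM + 1) between genes, the first-named minus the second, for 13 pairs; coloured points are replicates 1, 2 and 3, diamonds the mean with SD bars (n = 3), black where the difference is beyond its spread. Jak1 minus Tyk2 is 1.75 ± 0.07, Ifnar1 minus Ifnar2 is -1.35 ± 0.17, and Stat3 minus Stat2 is 0.01 ± 0.14.

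Ifnb1 varied more between libraries than any of the 8 genes of the receptors, kinases and STAT proteins. On expected counts scaled by TMM (edgeR's trimmed mean of M values, which allows for libraries of unlike make-up), the SD of log2 CPM over the 3 libraries was 0.047 for Ifngr2, 0.083 for Stat3, 0.086 for Jak1 and 0.098 for Ifnar2. It was 0.157 for Tyk2, 0.177 for Ifnar1, 0.211 for Stat2 and 0.230 for Ifngr1, beside a median of 0.152 over 11170 coding genes. Stat2 was lowest in replicate 3, at -0.24 from its mean, with 0.14 and 0.10 in replicates 1 and 2, and Ifngr1 was highest in replicate 1, at 0.26, with -0.15 and -0.11 in replicates 2 and 3.

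Ifnb1 had log2 CPM of 1.48, 1.49 and -0.16, an SD of 0.949, larger than that of 98.3% of the genes tested. Replicate 3 was the low library. Whether a gene varied more than genes of its abundance was tested with edgeR's goodness-of-fit test over 12244 genes, of which 211 (1.72%) had an adjusted p under 0.05 and 752 (6.14%) an unadjusted p under 0.05. None of the 9 genes was called after adjustment, and 1 of them, Ifnb1, had an unadjusted p under 0.05. For Ifnb1 the edgeR goodness-of-fit test gave an unadjusted p of 0.0162 and an adjusted p of 0.421. Its adjusted p ran from 0.0832 with coding genes alone to 0.999 without replicate 3. The unadjusted p of the receptor, kinase and STAT genes ran from 0.212 to 0.940.

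**Figure D5:**
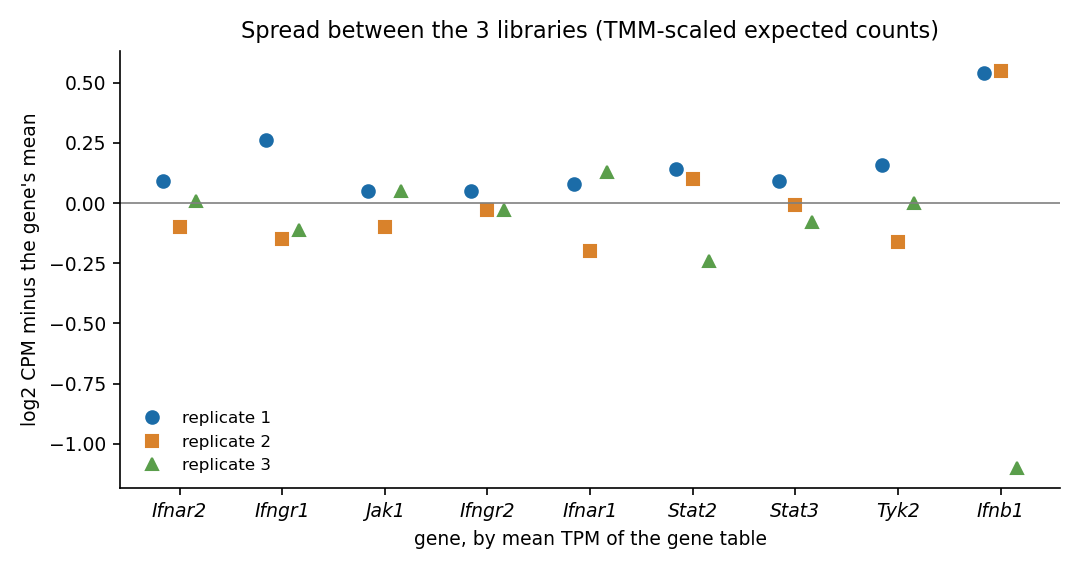
TMM-scaled log2 CPM of each gene in replicates 1, 2 and 3, minus the gene's mean over the 3 libraries. Ifnb1 lies at 0.54, 0.55 and -1.10, while the other 8 genes lie between -0.24 and 0.26.

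The coding genes whose pattern over the 3 libraries lay nearest to that of Ifnb1, by Euclidean distance of mean-centred log2 CPM, were Klk1b11 (distance 0.12), a kallikrein gene, Lipg (0.18), the endothelial lipase, Patl2 (0.19), Aldoc (0.19), an aldolase, and Cxcl10 (0.25), an interferon-inducible chemokine. All 5 were lowest in replicate 3, which follows from choosing them by likeness to Ifnb1. Cxcl10, the farthest of the 5, had log2 CPM of 7.37, 7.13 and 5.39. The edgeR goodness-of-fit adjusted p was 9.85e-04 for Klk1b11, 0.00577 for Lipg, 0.993 for Patl2, 0.00105 for Aldoc and 8.23e-11 for Cxcl10. A wide spread was part of the likeness by which the 5 were chosen, so these values describe them and add no separate evidence. With 3 libraries, likeness of this kind rests on the 1 low library.

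Around the 9 genes, the other receptor chains that signal through JAK kinases were mostly present. Of 9 such chains 8 reached 1 TPM, with a median of 28.9 TPM beside 0.200 over all coding genes. The share of all coding genes that reached 1 TPM, for this and the lists below, was 43.2%. Il10rb and Il10ra, the interleukin-10 receptor chains, were the highest by mean TPM, Il10ra with 82.3, 66.7 and 43.7 TPM; in replicate 2 Csf2rb, the shared beta chain of the GM-CSF receptor family, was above Il10ra at 77.9 TPM. Ifnlr1, the interferon lambda chain, was listed at 0 TPM in each library, with 1, 1 and 0 expected counts. Of the other JAK-STAT genes 5 of 6 reached 1 TPM, with a median of 7.47. Stat6, which acts downstream of interleukin-4, had 42.1, 49.8 and 30.8 TPM, above Stat2 and Stat3 in each library. Irf9, the DNA-binding partner of STAT2, had 19.1, 21.1 and 12.8 TPM, and Stat4, known from lymphocytes, had 0.990, 0.590 and 0.470.

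Of 13 genes that restrain the pathway 11 reached 1 TPM, beside 43.2% of all coding genes, with a median of 8.02 TPM. Socs3, which blocks JAK signalling at the interleukin-6 receptor family, had 190.4, 188 and 89.8 TPM, above all 9 genes in every library. Ptpn6, the phosphatase SHP-1, had 51.9, 54.5 and 37.9 TPM. Socs1, the inhibitor best known for the interferon receptors, had 0.700, 0.480 and 0.410 TPM, and Socs2 had 0.350, 0.450 and 0.310, both under 1 TPM in every library.

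All 14 genes of the route from Tlr4 to Ifnb1 were above 1 TPM, with a median of 21.2 TPM. Across all coding genes 43.2% reached 1 TPM. The highest were Cd14, which hands lipid A to the receptor, with 412, 417 and 282 TPM, and Jun, a factor that binds the Ifnb1 enhancer, with 189.8, 189 and 134 TPM. All 12 interferon target genes were above 1 TPM, with a median of 32.4 TPM. Ifit2, an antiviral gene that IRF3 can also switch on directly, had 127, 115 and 51.9 TPM, and Cxcl10 had 132, 119 and 24.2. By TPM all 12 targets and all 14 genes of the route were lowest in replicate 3, as all 9 genes were. Replicate 3 was the library with the lowest coding share of TPM, 23.5% beside 32.8% and 36.2%. After rescaling to coding genes 2 of the 9 were lowest there, and the same count was not made for the lists. Over the 6 lists 48 of 71 different genes reached 1 TPM, beside 43.2% of all coding genes. No unstimulated level stands beside these values.

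The second transcript table gave lower levels for each of the 9 genes, though not for every transcript. Its mean TPM was 0.569 of the gene-table mean for Ifnb1 and 0.406 to 0.563 of it for the other 8 genes. Ifnb1 had 2.07, 2.43 and 0.283 TPM there, with replicate 3 again the low library. Ifnar2 had 31.4, 33.3 and 14.3 TPM and remained first of the 9 in each library, and Ifnb1 remained last.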

How the data were processed

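RNA-seq of the cytosolic fraction of 3 lipid A-treated macrophage libraries was analysed from the deposited tables. Expected counts and TPM per gene, and per transcript in the first transcript table, were deposited as made from an alignment to the transcriptome, and the estimated counts and TPM of the second transcript table as made from the reads directly, all on mm10 with GENCODE M21, per the deposited notes. The sources used here name no aligner or counter and do not say whether strand was used. From these files, levels and shares were averaged over libraries, and pairs were compared within libraries in log2(TPM + 1). Expected counts were rounded to whole numbers for Poisson intervals and for edgeR 4.0.16 (filterByExpr, TMM, intercept only, goodness of fit, Benjamini-Hochberg; tested on simulated data). The alternatives were another pseudocount (0.1), CPM, TPM rescaled to coding genes, the second table, RLE factors, no filter, coding genes alone, and leaving out each library. The 9 genes, the lists and the rules were chosen with earlier results of these data known. The genes named were the 9, the 5 nearest to Ifnb1 and neighbouring genes. Of each list the 2 highest were named, and those with counts under 1 TPM where up to 3 were. Of the 59 transcripts, 41 were at or above 0.1 TPM on average in either transcript table, and only some of these are named. Differences have no control group behind them, and depth ranged from 37131719 to 58879278 counts in genes.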

Additional observations from a re-analysis of the deposited data

How the results depend on the processing

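No paired analysis was possible because the 3 libraries form 1 group. Division by length decided most orders among receptor chains: by CPM Ifnar1 minus Ifnar2 was -0.01 and Ifngr1 minus Ifnar1 0.16, both no longer beyond their spread, while Ifngr1 minus Ifngr2 (-0.15), Ifngr2 minus Ifnar2 (0.30), Ifnar2 minus Ifngr1 (-0.15) and Ifngr1 minus Jak1 (-1.03) changed sign. Coding Ifnar1 over full-length Ifnar2 alone, an alternative chosen after seeing the data, was 0.48. Without replicate 3, Stat3 minus Stat2 was -0.07 and Ifnar1 minus Stat2 was -0.05, both of the other sign. Leaving out each library in turn gave -0.05 to 0.25 for Ifnar1 minus Stat2. Leaving out a library gave -0.07 to 0.06 for Stat3 minus Stat2, 59 to 130 genes called for spread (59 without replicate 3, 115 without replicate 1, 130 without replicate 2, beside 211), and coding genes alone gave 115. The median of the 9 mean levels was 22.5 TPM and 9.53 in the second table; the median share in the main transcript was 91.7%, 88.5% in the second table and 97.1% in expected counts. The cause of these shifts was not tested beyond the construction of each alternative. Between Jak1 and Tyk2 the direction and the call were kept in every alternative run. Depth limits Ifnb1, with 48 to 106 counts, and the rare transcripts; a count of 0 covers counting error only.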
